A study of Homo sapiens with 6 samples.

Results

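The DNA damage checkpoint kinases and their mediators, ATM, ATR, ATRIP, CHEK1, CHEK2, TP53BP1, MDC1, TOPBP1 and CLSPN, were examined for places where polyadenylated transcripts end. All peaks of poly(A) 3′-sequencing reads were taken whose summit lay in the annotated body of 1 of these 9 genes or up to 4 kb past its 3′ end. The list held 173 such peaks among 200023 in all. ATM had 30 of them, ATR 36, ATRIP 5, CHEK1 14, CHEK2 12, TP53BP1 38, MDC1 5, TOPBP1 15 and CLSPN 18. Of the 173 peaks, 132 had a −log10 q-value of at least 5 from the peak caller, and these form the set described unless all peaks are named.

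The cells were IMR-32, an established human neuroblastoma line, and there were 6 libraries in 3 groups of 2 replicates. One group received the solvent DMSO, another 400 nM THZ531 for 2 h and the last 400 nM THZ531 for 6 h. THZ531 binds covalently to the transcriptional kinases CDK12 and CDK13 and blocks them. The peaks were called once on the merged reads, taken here to be those of the 6 libraries, so no value is available for a treatment or a replicate, no peak has a replicate error, and the depth of a library is unknown. Every value is therefore a description of 1 pooled list, and nothing in it compares DMSO with THZ531.

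ATM and ATR are the large kinases that start the response to damaged DNA. ATM is recruited to double-strand breaks, while ATR, held by its partner ATRIP on single-stranded DNA at stalled forks, is switched on by TOPBP1. ATR hands the signal to the kinase CHK1 (CHEK1) through the adaptor claspin (CLSPN), and ATM to CHK2 (CHEK2), with MDC1 and 53BP1 (TP53BP1) acting as scaffolds on the chromatin beside breaks. A gene can yield a short transcript when RNA polymerase II meets a polyadenylation signal (PAS) inside an intron and the RNA is cut and polyadenylated there, which is called premature cleavage and polyadenylation (PCPA). The U1 snRNP, which also recognises 5′ splice sites, is known to hold such intronic signals in check. In ATM and ATR the kinase domain lies near the C terminus, so that an intronic end upstream of the last exons leaves it out of the message.

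The height of a peak is given as the number of reads over its summit, recovered from the peak caller's fold and p-value. The caller keeps 1 read per start position and strand by default, so this number is not an expression level. Each read starts where the poly(A) tail was joined, and the edge of the peak nearest the 3′ end of the gene is called the 3′ edge. The list has no strand, so the strand is that of the gene. Where genes of both strands overlap, it cannot be told which gene gave the reads, which touched 20 of the 132 peaks. Locations refer to the canonical transcript in GENCODE 44 on GRCh38. Peaks in its last exon or up to 600 bp past it are called terminal. The 12 PAS hexamers named by the study were searched on the gene strand in the 100 bases that end at the 3′ edge, and A-rich sequence in the 50 bases after it, since an oligo(dT) primer can anneal to A-rich RNA as well as to a poly(A) tail. The canonical hexamer is AATAAA, and the most common variant after it is ATTAAA. The rarer ones searched were AGTAAA along with TATAAA, then CATAAA along with GATAAA, then ACTAAA along with AAGAAA, then AATATA along with AATACA, and finally AATGAA along with AATAGA. Distances of hexamers run from their first base to the edge.

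The sequences at the intronic sites differ between members in hexamers and A-rich runs, which are counted below, and so 1 site each of ATR, CHEK1, CHEK2 and CLSPN is shown. It is the tallest intronic peak of the gene whose window, 100 bases up to the 3′ edge and 50 after it, touched no annotated exon. Sequences are from GRCh38, 5′ to 3′ on the strand of the gene. Capitals mark PAS hexamers up to the edge and, after it, the 25 bases richest in A where at least 18 of them are A.
ATR intron 16, chr3:142543556-142543705, minus strand: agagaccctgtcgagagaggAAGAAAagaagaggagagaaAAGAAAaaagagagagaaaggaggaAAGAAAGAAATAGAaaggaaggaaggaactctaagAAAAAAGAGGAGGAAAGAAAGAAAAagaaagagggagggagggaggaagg
CHEK1 intron 5, chr11:125631218-125631367, plus strand: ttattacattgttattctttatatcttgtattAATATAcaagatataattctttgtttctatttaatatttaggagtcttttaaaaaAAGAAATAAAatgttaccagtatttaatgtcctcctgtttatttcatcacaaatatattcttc
CHEK2 intron 1, chr22:28740234-28740383, minus strand: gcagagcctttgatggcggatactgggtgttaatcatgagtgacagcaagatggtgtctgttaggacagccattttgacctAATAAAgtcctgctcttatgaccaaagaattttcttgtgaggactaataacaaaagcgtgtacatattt
CLSPN intron 8, chr1:35759346-35759495, minus strand: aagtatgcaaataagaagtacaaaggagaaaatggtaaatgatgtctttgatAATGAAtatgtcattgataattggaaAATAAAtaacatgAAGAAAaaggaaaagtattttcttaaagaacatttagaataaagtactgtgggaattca

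The windows chosen in this way fall into several kinds. CHEK1 intron 5, CHEK2 intron 1 and CLSPN intron 8 hold AATAAA 9, 19 and 22 bp before the edge and have at most 13 A in any 25 bases after it. ATM intron 29, ATRIP intron 1, TP53BP1 intron 4 and TOPBP1 intron 8 hold none of the 12 hexamers and run into 25 bases with 18, 21, 19 and 24 A. In ATM the taller peak of intron 26 was passed over because its window reaches into an annotated exon. MDC1 intron 2 also has no hexamer and reaches 17 A. ATR intron 16, the tallest of all the intronic peaks at 30 reads, lies in a purine-rich stretch that repeats AAGAAA.

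At the tallest terminal peak of each gene 30 bases are shown, with the hexamers in capitals. The windows of ATM, ATR and CHEK1 and the taller one of ATRIP end at the 3′ edge. The other windows were moved upstream to begin just before an AATAAA or ATTAAA, unlike the fixed intronic windows. ATM had a pair of equal height, and for ATRIP a second site is shown because the taller one lies in a gene of the other strand.
ATM end, proximal, chr11:108367478-108367507, plus strand: taaacatcaGATAAAaagccacctgaaagt
ATM end, distal, chr11:108369071-108369100, plus strand: agtgtttttgAATAAAtaattctaaaagca
ATR end, chr3:142449233-142449262, minus strand: ttAAGAAATAAActgctttcttAATACAta
ATRIP end, taller, chr3:48467956-48467985, plus strand: ggtgaaacagtAATAGAgggaggaggaaca
ATRIP end, at the annotated ATRIP-202 end, chr3:48465613-48465642, plus strand: actgATTAAAgcagtgaccagcaggaactg
CHEK1 end, chr11:125657323-125657352, plus strand: ttaTATAAAAATACATAAAatatgtacact
CHEK2 end, chr22:28687740-28687769, minus strand: tacaATTAAAaacctgatggaacctgggct
TP53BP1 end, chr15:43407219-43407248, minus strand: ataaAATAAAtgttgaatctctttggttgt
MDC1 end, chr6:30700304-30700333, minus strand: tatgAATAAATGAAaagataagggatttgg
TOPBP1 end, chr3:133600644-133600673, minus strand: aaagAATAAAagtagtaactcaaattagta
CLSPN end, chr1:35734251-35734280, minus strand: tttcAATAAAtcttaatgccttgaagggaa

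AATAAA or ATTAAA is in capitals in the window of every gene but CHEK1 if the distal ATM site and the site at the annotated ATRIP-202 end are read. In the windows moved upstream this follows from their placement. In TOPBP1 the AATAAA shown begins 59 bp before the edge, and a GATAAA at 15 bp falls outside the window. None of the 18 terminal peaks had 18 A in any 25 bases after the edge (upper bound of the 95% Wilson interval 17.6%), beside 3.97% of the terminal peaks of all protein-coding genes with introns.

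**Figure D1:**
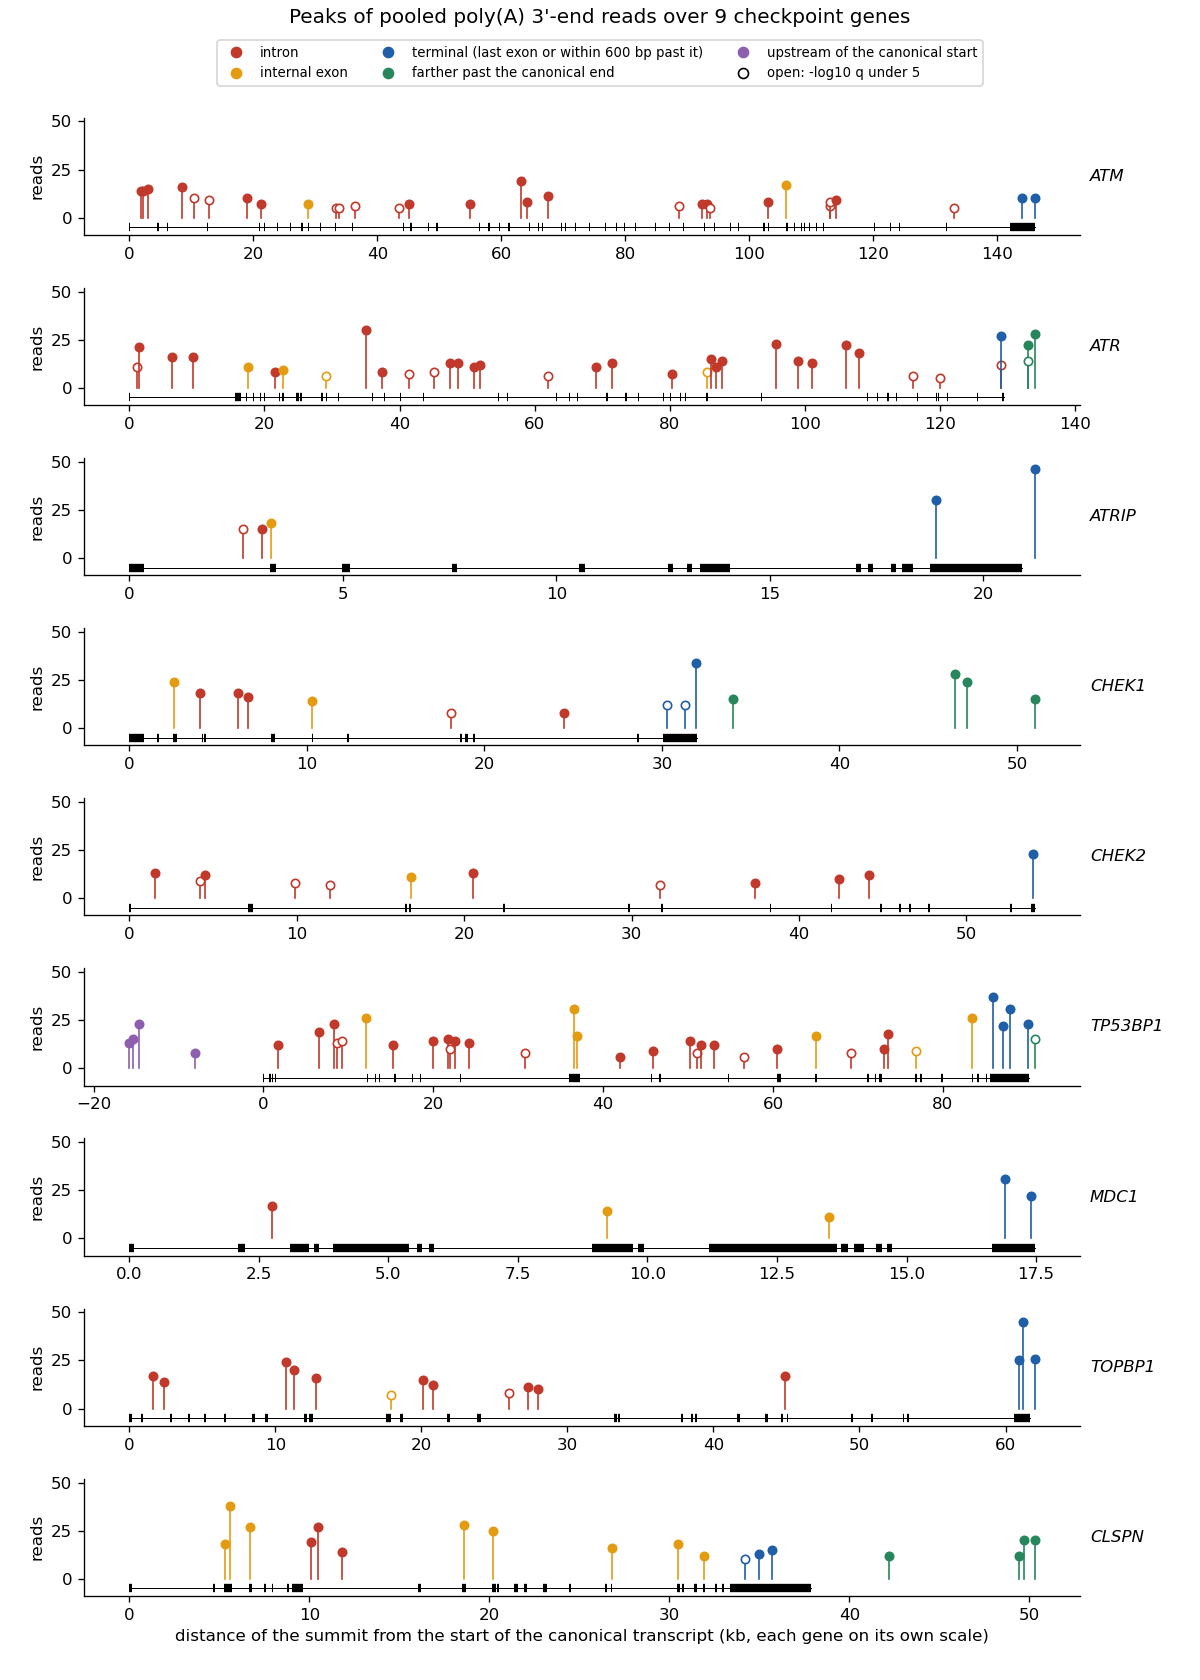
Reads at the summit (vertical axis) of all 173 peaks against the distance of the summit from the start of the canonical transcript (horizontal axis, kb, 1 scale per gene), with exons as black boxes below. Filled points have −log10 q of at least 5 and open points less, and colours give the location. ATR and TP53BP1 carry the most peaks, 36 and 38, CLSPN carries its tallest peak in an exon, and the terminal peaks of ATM reach only 10 reads.

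Of the 132 peaks, 77 lay in introns (58.3%, 95% Wilson interval 49.8 to 66.4), 23 in internal exons, 18 at the terminal exon, 4 upstream of the canonical start and 10 farther past the canonical end. All protein-coding genes with introns and a terminal peak held 79614 intronic, 5180 internal exon and 24294 terminal peaks, so the intronic ones were the largest of these classes there too. The median height was 13.0 reads for intronic peaks (range 6 to 30), 17.0 for internal exon peaks (7 to 38) and 25.5 for terminal peaks (10 to 46), beside medians of 12, 15 and 21.0 over all detected protein-coding genes, that is, those with introns and a terminal peak. Among all intronic peaks of these genes, 77 of 109 passed the cutoff (70.6%, 61.5 to 78.4), close to the 67.9% of all detected genes. The nearest values to the cutoff were a −log10 q of 5.024 inside and 4.994 outside it. The 41 peaks below it had 5 to 15 reads, and 32 of them were intronic.

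ATM, the kinase of double-strand breaks, had its tallest peak in an intron, and its lower terminal peaks lie where a gene of the other strand overlaps it. Its gene is on chromosome 11 from 108223044 to 108369102, plus strand, 146 kb long with 62 introns. Its terminal peaks had 10 reads each. One ended 2 bp before the annotated end, with AATAAA 20 bp before the edge, and the other ended 1595 bp before it. This height was at the 5.91 percentile of the tallest terminal peaks of detected genes. Of its 15 intronic peaks, the tallest was in intron 26, 63.2 kb from the start, with 19 reads and a −log10 q of 19.8. It had no hexamer and 19 A in 25 bases. The next were 16 reads in intron 4, 8.57 kb from the start, where the 3′ edge was 18 bp before the end of the annotated protein-coding transcript ATM-235, and 14, 14 and 15 reads at 3 sites of intron 1. The sites of intron 1 lay 1.90 to 2.95 kb from the start, before any coding base, and within exons of other annotated transcripts. The one at 2.95 kb had AATAAA 14 bp before the edge.

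The 3′ part of ATM overlaps C11orf65 on the opposite strand, and 4 of the 15 intronic peaks, an internal exon peak of 17 reads and both terminal peaks lay there. Their strand cannot be told apart. Among these, a peak of 9 reads in intron 56 ended 20 bp past the end of the retained-intron transcript ATM-206, with AATAAA 25 bp before its edge. The other intronic peaks of ATM had 7 to 11 reads, and in introns 17 and 22, at 7 reads each, AATAAA stood 21 and 22 bp before the edge.

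ATR had the most intronic peaks of the 9 genes, 21 in 46 introns. Its gene is on chromosome 3 from 142449007 to 142578733, minus strand, 130 kb long. Its only terminal peak had 27 reads and ended 2 bp past the canonical end, with AATAAA 24 bp before the edge. The tallest intronic peak, in intron 16 at 35 kb, had 30 reads and a −log10 q of 38.9, the highest of any intronic member peak. Intron 36, upstream of the last part of the coding sequence, held 5 peaks of 23, 14, 13, 22 and 18 reads between 95.7 and 108 kb from the start, all after 78.4% of the coding bases. The one of 18 reads had AATAAA 26 bp before its edge. Intron 21 held 4 peaks of 11 to 13 reads, intron 35 had 3 of 11 to 15 reads and intron 1 had 3 of 16 to 21 reads. In intron 1 the peak at 9.37 kb, with 16 reads, had AATAAA 22 bp before the edge, whereas the one at 6.30 kb, also with 16 reads, had no hexamer and 22 A in 25 bases.

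ATRIP, the partner that brings ATR to single-stranded DNA, had 1 intronic peak in a gene of 20.9 kb (chromosome 3, 48446710 to 48467645, plus strand). It lay in intron 1, 3.11 kb from the start, with 15 reads. A second one, 2.66 kb from the start and also with 15 reads, just missed the cutoff at 4.92. An internal exon peak of 18 reads followed at 3.33 kb. The tallest terminal peak had 46 reads and ended 340 bp past the canonical end, in the last exon of SHISA5 on the opposite strand, with its other edge 36 bp before that gene's end, so it cannot be assigned to ATRIP. It also lies past the end of TREX1, a neighbour of the same strand. The other terminal peak, of 30 reads, ended exactly at the end of the protein-coding transcript ATRIP-202 with ATTAAA 39 bp before the edge.

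CHEK1, which encodes the effector kinase of ATR, had 4 intronic peaks in 12 introns. Its gene is on chromosome 11 from 125625163 to 125676255, plus strand. The peaks had 18 reads in intron 3, 18 and 16 in intron 5 and 8 in intron 11. The site in intron 3, 4.0 kb from the start and after 20.2% of the coding bases, had AATAAA 17 bp before the edge and at most 9 A in 25 bases. It also lies less than 4 kb past the end of STT3A, a neighbour of the same strand, as does the internal exon peak of 24 reads at 2.52 kb, which had AATAAA 29 bp before its edge. The terminal peak had 34 reads and ended 205 bp past the canonical end.

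CHEK2, the effector kinase of ATM, had 6 intronic peaks of 8 to 13 reads in 14 introns (chromosome 22, 28687743 to 28742422, minus strand). The peak nearest the start was at 1.53 kb in intron 1, before any coding base, with 13 reads and AATAAA 19 bp before the edge. A peak of the same height in intron 4 had no hexamer and 20 A in 25 bases. Of the 6 peaks, 4 had at least 18 A, the share of A-rich sites among its peaks being the highest of the genes with more than 1 intronic peak. An internal exon peak of 11 reads ended 1 bp before the end of CHEK2-217, a transcript annotated for nonsense-mediated decay, with AATAAA 18 bp before the edge. The terminal peak had 23 reads and ended 18 bp past the canonical end.

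TP53BP1, the scaffold that steers repair at double-strand breaks, had 16 intronic peaks in 27 introns and the most peaks in all. Its gene is on chromosome 15 from 43403061 to 43510728, minus strand, with the canonical start at 43493156. The tallest intronic peak had 23 reads in intron 4, which also held peaks of 12 and 19 reads, all after 6.26% of the coding bases. The one of 19 reads had AATAAA 13 bp before the edge. Intron 10 held 3 peaks of 14, 15 and 14 reads, the first with AATAAA 21 bp and the second 22 bp before the edge. A peak of 10 reads in intron 16 ended 9 bp past the end of the protein-coding transcript TP53BP1-205. Another of 9 reads in intron 13 ended 3 bp before the end of TP53BP1-206. Between the gene's start and the canonical start, 4 more peaks had 13, 15, 23 and 8 reads.

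The last exon of TP53BP1 held 4 terminal peaks of 37, 22, 31 and 23 reads, and all 4 lie in TUBGCP4 on the opposite strand. The first ended 1 bp before the end of TP53BP1-201 and the last 2 bp before the canonical end, each with AATAAA, 35 and 20 bp before the edge. An internal exon peak of 26 reads also overlapped TUBGCP4, and its far edge was 5 bp before that gene's end. The other 4 internal exon peaks, of 26, 31, 17 and 17 reads, overlapped no other gene and had no AATAAA.

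MDC1, the scaffold that binds phosphorylated H2AX, had 1 intronic peak of 17 reads in intron 2, 2.75 kb from the start and after 2.17% of the coding bases (chromosome 6, 30699807 to 30717447, minus strand). Its terminal peaks had 31 and 22 reads. The second ended at the canonical end itself, with AATAAA 24 bp before the edge, and the first 493 bp before it, with AATAAA 30 bp before the edge. Its 2 internal exon peaks, of 14 and 11 reads, lie in MDC1-AS1 on the opposite strand.

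TOPBP1, the activator of ATR, had 10 intronic peaks in 27 introns and no internal exon peak past the cutoff (chromosome 3, 133598175 to 133662380, minus strand). Intron 8 held peaks of 24 and 20 reads, 10.7 and 11.3 kb from the start. They differ in sequence. The first had no hexamer and 24 A in 25 bases, the most of any intronic member peak past the cutoff, and the second had AATAAA 24 bp before the edge and at most 6 A. In intron 12 a peak of 15 reads had AATAAA 21 bp before the edge, and in intron 10 a peak of 16 reads had ATTAAA at the same distance. The terminal peaks had 25, 45 and 26 reads and ended 792 and 373 bp before and 379 bp past the canonical end.

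CLSPN, which couples ATR to CHK1, had 8 of its 17 peaks in internal exons, more than any other member. Its gene is on chromosome 1 from 35720218 to 35769978, minus strand, with 24 introns in the canonical transcript, which ends at 35732112. There were 8 internal exon peaks of 18, 38, 27, 28, 25, 16, 18 and 12 reads from the 5′ to the 3′ side. The tallest, 5.59 kb from the start and after 11.5% of the coding bases, had 38 reads, which is above every other intronic or internal exon peak of the 9 genes. One of the 8, 5.34 kb from the start, had AATAAA 21 bp before its edge. The peaks of 16 reads and, next to it, 18 reads overlap an annotated gene of the other strand that has no symbol. The 3 intronic peaks all lay in intron 8, with 19, 27 and 14 reads. No peak lay at the canonical end itself. The terminal peaks had 13 and 15 reads and ended 2857 and 2138 bp before it, with AATAAA 22 and 27 bp before the edge.

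The first comparison was between the number of intronic peaks and that in genes of similar length, because longer genes hold more intronic sites. All 9 had a terminal peak, beside 66.9% of protein-coding genes with introns. Each gene was set beside the 500 detected genes nearest to it in length. ATR, with 21 intronic peaks, stood at the 89.0 percentile of its 500 (median 11.0, quartiles 7.0 and 16.0). TP53BP1, with 16, stood at the 82.7 percentile (median 10.0), and TOPBP1, with 10, at the 79.4 percentile (median 6.00). ATM, with 15, was at 58.9 (median 13.0) and CHEK2, with 6, at 56.6 (median 5.0). CHEK1, with 4, was at 38.2 (median 5.0), MDC1 and ATRIP, with 1 each, at 32.1 and 24.6 (median 2.00 for both), and CLSPN, with 3, at 26.2 (median 5.0). Thus 5 of the 9 lay above the median, and the median percentile was 56.6. When the 21 peaks in annotated exons or transcript-end windows of other transcripts were set aside, 56 intronic peaks and 3 genes above the median remained.

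**Figure D2:**
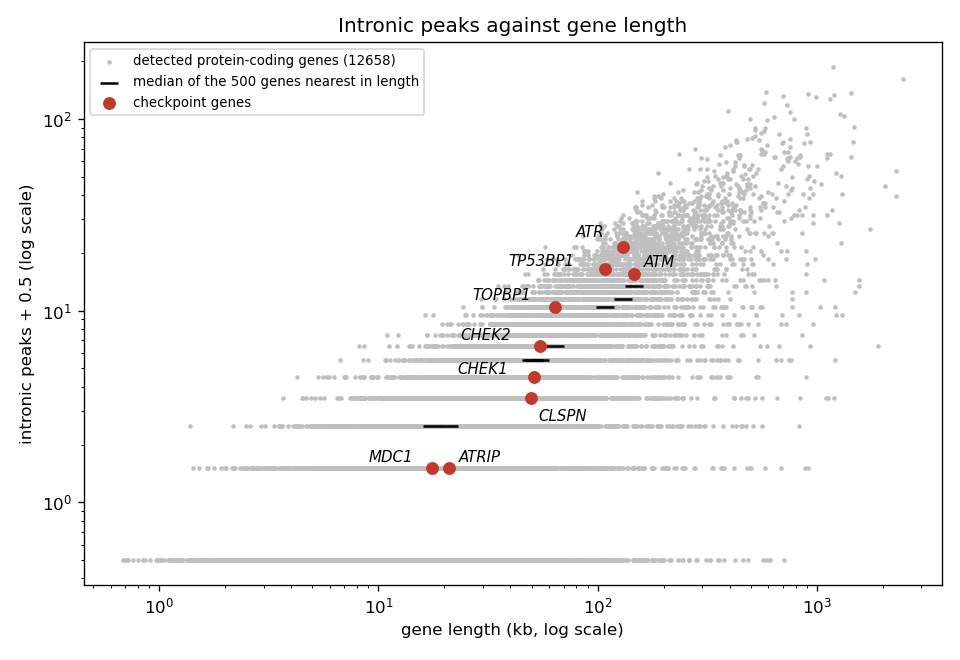
Number of intronic peaks plus 0.5 (vertical axis, log scale) against gene length (horizontal axis, kb, log scale) for 12658 detected protein-coding genes in grey and the 9 checkpoint genes in red. Black dashes give the median of the 500 genes nearest in length to each. ATR, TP53BP1 and TOPBP1 lie farthest above their dashes, and CLSPN, CHEK1, MDC1 and ATRIP lie below theirs.

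Over the 9 genes together there were 0.146 intronic peaks per kb of intron, and over all detected genes 0.0988. This pooled background is not matched for gene length. In the length-matched comparison above, 5 of the 9 were above the median and the median percentile was 56.6. TP53BP1 had the highest density, 0.201 per kb, then TOPBP1 with 0.179 and ATR with 0.173. ATRIP had the lowest, 0.0612 per kb. The peaks were spread over 48 of the 238 introns, and 8 introns with at least 3 peaks each held 27 of the 77. An intronic peak was present in all 9 genes, beside 80.1% of detected genes, which are also not matched for length.

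For internal exons the order of the genes was different. CLSPN had 1.99 peaks per kb of internal exon, CHEK1 0.907, TP53BP1 0.853 and CHEK2 0.625, whereas over all detected genes the density was 0.231 and over the 9 genes 0.525. Beside the 500 genes nearest in length of internal exons, CLSPN was at the 99.6 percentile, TP53BP1 at 93 and CHEK1 at 91.5. CHEK2 was at 84.4, ATRIP at 77.3, MDC1 at 69.6, ATR at 65.8, ATM at 64.8 and TOPBP1 at 24.3. At least 1 internal exon peak was found in 8 of the 9 genes and in 23.1% of detected genes, a share not matched for exon length. Among the genes of similar internal exon length the median was 1 peak for ATM, ATR, TP53BP1, MDC1 and TOPBP1. It was 0 for the other members. Both peaks of MDC1, 1 each of ATM and TP53BP1 and 2 of CLSPN lie in genes of the other strand. The counts, densities and percentiles include them. Of the 23 peaks, 15 had a hexamer (65.2%, 44.9 to 81.2), beside 61.1% of such peaks in all detected genes, and 2 had at least 18 A in 25 bases after the edge (8.70%, 2.42 to 26.8), beside 2.93%. Both of these were in CLSPN, at the sites of 38 and 25 reads.

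The next comparison was of heights within a gene. In ATM the tallest intronic peak was 1.90 times the tallest terminal peak (19 against 10 reads), in CLSPN 1.80 times (27 against 15) and in ATR 1.11 times (30 against 27). In the other 6 genes the ratio was 0.326 to 0.622, lowest in ATRIP (15 against 46 reads). With the terminal peak of 30 reads in place of the one that lies in SHISA5, the intronic peak of ATRIP was still the lower. In CLSPN, peaks of 20 reads near a later annotated end, past the canonical one, were not counted as terminal. They too were lower than its intronic peak of 27 reads. The share of 3 in 9 is close to the 33.5% of detected genes with an intronic peak. The median ratio was 0.565 over the 9 genes and 0.818 over those detected genes. At such numbers of reads a difference of 30 against 27 is within counting error. Without peaks where genes of both strands overlap, ATM and TP53BP1 had no terminal peak, and 2 of the other 7 genes, ATR and CLSPN, had the taller peak in an intron.

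**Figure D3:**
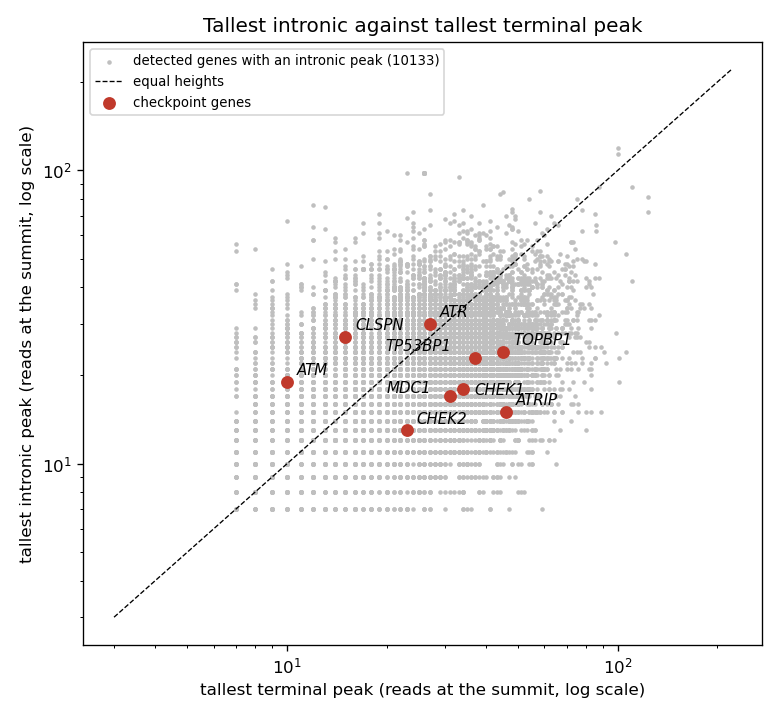
Tallest intronic peak (vertical axis) against tallest terminal peak (horizontal axis), both in reads at the summit on log scales, for 10133 detected genes with an intronic peak in grey and the 9 checkpoint genes in red. The dashed line marks equal heights, with ATM, CLSPN and ATR above it and the other 6 genes below.

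To see how many of the intronic sites carry the letters of a PAS, the hexamers were counted. Of the 77 intronic peaks, 52 had at least 1 of the 12 hexamers (67.5%, 56.5 to 76.9), beside 59.0% over all detected genes. The 12 hexamers are frequent in these introns: a window ending at any base of them holds 1 in 45.5% of cases, and the opposite strand of the same peaks gave 50.6% (39.7 to 61.5), beside 37.7% over all detected genes. AATAAA alone was at 27 peaks (35.1%, 25.3 to 46.2), beside 27.9% over all detected genes and 8.39% of all bases of these introns. At 20 peaks it began 10 to 35 bp before the edge (26%, 17.5 to 36.7), beside 19.9%. These 20 were 5 in ATR, 5 in TP53BP1, 4 in ATM, 2 each in CHEK2 and TOPBP1 and 1 each in CHEK1 and CLSPN, and 19 of them had fewer than 18 A after the edge. For terminal peaks of the 9 genes the shares were 88.9% (67.2 to 96.9) with a hexamer and 61.1% (38.6 to 79.7) with AATAAA, beside 82.3% and 48.8% over all detected genes. The 5 intervals of the 9 genes for the gene strand contain the values of all detected genes, and that for the opposite strand does not. Many of the 77 intronic peaks share a gene or an intron, which these intervals and those below do not allow for.

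**Figure D4:**
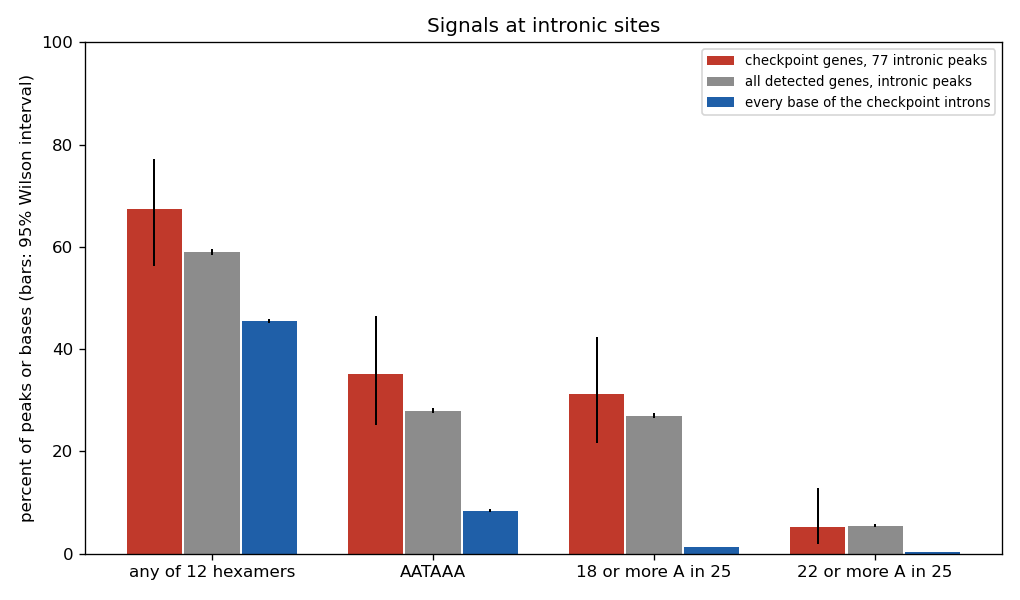
Percent (vertical axis, with 95% Wilson intervals as black lines) of the 77 intronic peaks of the checkpoint genes (red), of the intronic peaks of all detected genes (grey) and of every base of the checkpoint introns taken as an edge (blue) that hold 1 of 12 hexamers, AATAAA, at least 18 A in 25 bases or at least 22. The red and grey bars lie within the red intervals in all 4 cases, and the blue bars are lower.

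A-rich sequence after the edge was also more frequent at these peaks than along the introns. At least 22 A in 25 bases followed 4 of the 77 intronic peaks (5.19%, 2.04 to 12.6), beside 5.45% over all detected genes and 0.246% of the bases of these introns. They were 2 peaks of ATR and 1 each of TP53BP1 and TOPBP1, and none of them had a hexamer. The one of TOPBP1 is its tallest intronic peak. The study removed peaks with such a stretch and no PAS motif, a step not applied here. Without them 73 intronic peaks were left. At least 18 A followed 24 peaks (31.2%, 21.9 to 42.2), beside 27.0% and 1.34%. On the opposite strand of the same peaks the share with 18 A was 2.60% (0.715 to 8.98), beside 1.91% over all detected genes. Counted jointly with the hexamers, 46 peaks had a hexamer and no A-rich stretch (59.7%, 48.6 to 70.0, beside 49.7% over all detected genes) and 18 had the stretch and no hexamer (23.4%, 15.3 to 34.0, beside 17.8%). Both were present at 6 peaks (7.79%, 3.62 to 16.0, beside 9.25%). Neither was present at 7 (9.09%, 4.47 to 17.6), beside 23.3%, which is above the interval. The median heights of these kinds were 13.5, 13.5, 13.0 and 11.0 reads. The tallest intronic peak was followed by at least 18 A in ATM, ATR, ATRIP, TP53BP1 and TOPBP1, and at 1 of the equally tall pair of CHEK2. The share of detected genes whose tallest intronic peak is so followed was not computed, so this count has no background. The part of priming on A-rich RNA in these peaks was not tested.

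Annotated ends add a measure that does not rest on sequence. The 3′ edge lay within 50 bp of an annotated end of the same gene at 4 of the 77 intronic peaks (5.19%, 2.04 to 12.6), beside 3.60% over all detected genes. In a wider window, with the summit from 200 bp before to 600 bp past such an end, there were 11 (14.3%, 8.17 to 23.8), beside 7.73%, which is below the interval. ATM alone held 5 of the 11, and the number of annotated ends per gene was not taken into account. The 4 nearest are the peaks of ATM introns 4 and 56 and TP53BP1 introns 13 and 16 given above. Internal exon peaks of ATR (9 reads, 10 bp before the end of ATR-216), CHEK1 (14 reads, 47 bp past the end of CHEK1-208) and CHEK2 (CHEK2-217, above) did so too.

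The position of the sites was then set against the coding sequence. A median of 43.6% of the coding bases lay upstream of the 77 intronic peaks, beside 23% over all detected genes. Of the 77, 49 lay before 50% of the coding bases (63.6%, 52.5 to 73.5), beside 71.3% over all detected genes, and 17 before 10% of them (22.1%, 14.3 to 32.5), beside 33.7%, which is above the interval. The first intron held 9 of them (11.7%, 6.27 to 20.7), in ATM, ATR, ATRIP and CHEK2, beside 29.9% over all detected genes. The first intron makes up less of these genes: weighted by the peaks of each gene, it holds 5.58% of the intronic bases of the 9 genes and 26.1% of those of all detected genes. Within ATR, 10 of the 21 intronic peaks lay before 50% of the coding bases, and the last at 78.4%. In ATM, 11 of 15 lay before 50%, and the last at 90.2%.

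**Figure D5:**
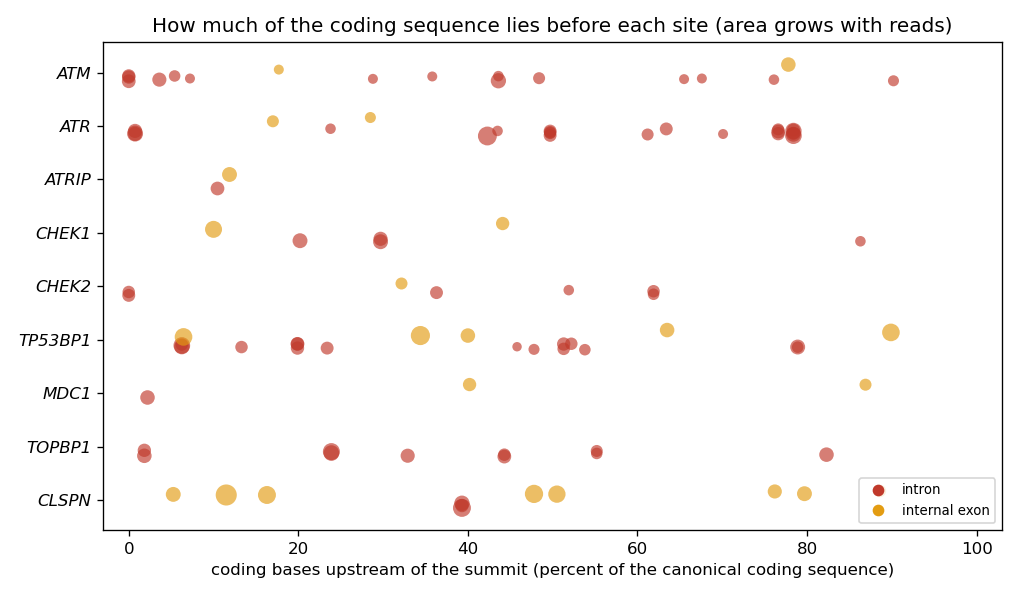
Share of the canonical coding sequence upstream of each summit (horizontal axis, percent) for the intronic (red) and internal exon (orange) peaks of each gene (rows) with −log10 q of at least 5. The area of a point grows with its reads. Intronic peaks of ATR stand in columns at 49.7% and 78.4%, where introns 21 and 36 hold 4 and 5 peaks, and those of CLSPN stand at 39.3%.

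The genes differ in features that the study relates to PCPA, among them length and the number of U1 recognition motifs per AATAAA over the gene body. The study also names a longer first intron, more introns, higher expression and lower GC content. By effect size it puts GC content and the U1 ratio first. U1 motifs and AATAAA were both counted on the gene strand. The first motif was GGTGAG, the next one searched was GGTAAG, and the last was GTGAGT, which can overlap the first and is then counted beside it. ATM had 74 such motifs and 161 AATAAA, a ratio of 0.460, and ATR 84 and 177, a ratio of 0.475. These are at the 8.02 and 9.09 percentiles of detected genes, whose median is 1.09. CHEK1 followed with 0.561, TOPBP1 with 0.667 and CHEK2 with 0.698. TP53BP1 and CLSPN were near the median with 1.11 and 1.14, and ATRIP and MDC1 had 2.44 and 3.43, at the 74.8 and 82.4 percentiles. The order of GC content was similar, from 37.1% in ATR and 37.4% in ATM to 48.7% in MDC1 and 48.9% in ATRIP. The pair with the highest ratios, MDC1 and ATRIP, are also the shortest genes and had 1 intronic peak each, while TP53BP1 and TOPBP1, next to ATR in intronic peaks for their length, had ratios of 1.11 and 0.667.

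Past the 3′ ends, 2 of the 9 genes had a peak 600 to 4000 bp beyond the canonical end, beside 32.0% of detected genes. In CHEK1 it had 15 reads, ended 2081 bp past the end and had AATAAA 21 bp before the edge, with no other gene there. In ATR it had 22 reads and ended 3193 bp past the end, in intron 1 of XRN1, the next gene on the same strand. A further peak of 28 reads, 4176 bp past the end, and a lower one of 14 reads, which missed the cutoff, lie in the same intron. Longer annotated transcripts brought in 3 more CHEK1 peaks and 4 CLSPN peaks. Those of CHEK1, with 28, 24 and 15 reads 14615, 15286 and 19112 bp past the canonical end, overlap ACRV1 on the opposite strand. The one of 28 reads has its summit in the last exon of ACRV1 and its other edge 34 bp past that gene's end. The one of 15 reads ended 4 bp past the end of the protein-coding transcript CHEK1-203. Those of CLSPN had 12, 12, 20 and 20 reads 4405 to 12449 bp past the canonical end, so that the tallest stood above the terminal peaks of 13 and 15 reads. The peak of 20 reads at 11999 bp ended 105 bp past an annotated end of the gene. TP53BP1 had 1 peak of 15 reads 1039 bp past the end that missed the cutoff.

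Other genes of the checkpoint were taken from a list of 56 (the 9-1-1 clamp and its loader, RPA and the ATR activator ETAA1, fork protection, the MRN complex, H2AX with factors of histone ubiquitination and methylation, further mediators, control of mitotic entry, the p53 branch, the complex that stabilises these kinases and the ubiquitin control of claspin and CHK1). All 56 were matched, and 54 were detected and have an intron. Of these 54, 51 had an intronic peak, beside 80.1% of detected genes, and 28 lay above the median of genes of similar length. Their median percentile was 58.9. In 15 of the 51 with an intronic peak the tallest one was above the tallest terminal peak, beside 33.5% of detected genes with an intronic peak. The groups ranged from 4 of 5 genes above the median, in the p53 branch and among RNF8, RNF168, UBE2N, L3MBTL1 and KMT5A, which were listed with the intronless H2AX, to 1 of 8 for control of mitotic entry and 0 of 4 for the ubiquitin control of claspin and CHK1. Genes exactly at the median were not counted as above it. These were WEE1, PKMYT1, CDK1 and CCNB1 in the former group and USP28, USP7 and FBXO6 in the latter, where BTRC had 14 peaks against a median of 15. The highest percentiles were those of PPM1D, the phosphatase that switches the checkpoint off (17 intronic peaks, 99.4), CDKN1A, the CDK inhibitor p21 (5 peaks, 99.3), and MDM2, the ubiquitin ligase of p53 (9 peaks, 96.7). The lowest were those of MAD2L2 (no peak, 5.5), RPA2 (no peak, 6.2) and RAD9A (1 peak, 7.3). ATR thus stood below these 3 highest genes, and no member was as low as the 3 lowest.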

How the data were processed

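Poly(A) 3′-seq was made from 6 IMR-32 libraries. The authors aligned trimmed reads to GRCh38 with STAR 2.5.1b, allowing up to 20 placements, then pooled the alignments of their samples and ran MACS2 2.1.1 without a control (study's methods, with versions also in the submitters' processing notes). By its methods the study then removed peaks that had no PAS motif but a genomic A stretch downstream. The list still held such peaks by the windows used here, and they were kept. The deposited list gives for each peak a fold (the ratio of pileup plus 1 to background plus 1), a −log10 p-value, a −log10 q-value and the summit offset. The deposited score, a whole-number form of the q-value, was not used.

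Here the pileup at each summit was solved from fold and −log10 p (largest misfit 0.000172). The solver and the motif searches were tested on simulated data. Peaks with −log10 q of at least 5 were kept. Coordinates are 1-based, and annotation was GENCODE 44, which is newer than the study's. The canonical transcript defined introns, and terminal peaks lay in its last exon or up to 600 bp past it. A peak in several genes was counted in each. Shares carry 95% Wilson intervals, which cover counting error only. They treat each peak as independent, although ATR, TP53BP1 and ATM held 21, 16 and 15 of the 77 intronic peaks. A background value outside an interval is therefore not a test result. No test across genes was run, since genes of 1 pooled list are not replicates. Named were, for each gene, the tallest terminal and intronic peaks, the intronic peak nearest the start and all peaks past the end, and from the list of other checkpoint genes the 3 highest and 3 lowest percentiles. Other peaks were named after their values were seen. The 9 genes and the lists were chosen with earlier results of these data known. Alternatives changed the cutoff, the definition of introns, the terminal window, merging, strand overlap, the motif windows, the A-rich threshold and the choice of similar genes, and left out each gene in turn. Python 3.11.15, NumPy, pandas, SciPy and matplotlib were used. Sequence windows at the intronic peaks are shown for ATR, CHEK1, CHEK2 and CLSPN, and those of the other 5 genes are not reported here.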

Additional observations from a re-analysis of the deposited data

How the results depend on the processing

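No paired analysis was possible because the deposited peaks were called on merged reads and carry no value for a replicate, and no replicate could be left out for the same reason. Of 114 values under alternatives, 98 were labelled the same as those reported, but the label was broad. It took in 109 intronic peaks with all peaks of the list and 53 without peaks followed by at least 18 A, beside 77. It also took in 3 genes above the median outside annotated exons and transcript-end windows, beside 5. Many of the 114 values came from leaving out 1 gene. With −log10 q of at least 20, only 2 intronic peaks remained, of which 100% had a hexamer, 0% an A stretch and 0% lay in the first intron. At that cutoff 1 gene was above the median of genes of similar length, 0 genes had both a tall intronic and a tall terminal peak to compare, and 0 downstream peaks remained; fewer peaks are tested there by construction. The share with a hexamer was 41.6% in a window ending at the summit, 49.4% at the 5′ edge and 35.1% for AATAAA alone. It was 86.8% without peaks followed by at least 18 A. The share with an A stretch was 31.2% at 18 A. Downstream peaks numbered 4 with all peaks of the list and 4 with a terminal window of 100 bp. Leaving out each gene in turn gave 56 to 76 intronic peaks, hexamer shares of 64.3% to 68.9%, A-stretch shares of 3.57% to 6.45%, first-intron shares of 9.68% to 14.8%, 4 to 5 genes above the median, 2 to 3 genes with the taller intronic peak and 1 to 2 downstream peaks, with 1 left without ATR or without CHEK1. At 6 to 46 reads per peak, small differences in height cannot be resolved.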
